A study of Bos taurus with 56 samples.

Results

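The genes of cholesterol biosynthesis, intracellular cholesterol handling and SREBP control were followed through the epithelium of the bovine oviduct. The set was chosen by name: 27 gene symbols were looked up in the deposited table of read counts, and 26 of them were found among its 31903 genes. STARD4 was not analysed here. All 26 genes passed the filter on low counts in every comparison, so each comparison below holds the same 26.

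Cells make cholesterol from acetyl-CoA through mevalonate, isoprenoid diphosphates, squalene and lanosterol, in a chain of enzymes whose late steps include DHCR7. The chain is controlled at the level of transcription by SREBP2, the product of SREBF2, and in part by SREBP1, the product of SREBF1. SCAP escorts these precursors to the Golgi apparatus, where they are cleaved to active transcription factors, and the INSIG proteins hold SCAP in the endoplasmic reticulum when sterols are plentiful. Cholesterol taken up with lipoproteins leaves the lysosome by way of NPC2 and NPC1, and SCP2 is a carrier of sterols and other lipids. In the female tract, sperm are known to lose membrane cholesterol as they gain the capacity to fertilise.

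The samples came from Holstein females on Day 3 after oestrus. Nulliparous heifers (n = 5) were set against primiparous cows about 60 days post partum that had been either dried off at calving and never milked (non-lactating, n = 5) or milked (lactating, n = 4). All animals shared the same oestrous synchronisation with an intravaginal progesterone device, a prostaglandin analogue and a GnRH analogue, and none was inseminated. Epithelial cells were scraped from the ampulla, the part near the ovary, and from the isthmus, the part near the uterus, of the oviduct on the side of the corpus luteum (ipsilateral) and of the opposite oviduct (contralateral). Each of the 14 animals thus gave 4 libraries, 56 in all, in 12 conditions. The side of the corpus luteum is also the side of ovulation, and in these samples they cannot be told apart. Lactating cows differed from heifers in both parity and milking, and from non-lactating cows in milking.

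Values are counts scaled to a common library total (CPM), with library totals adjusted by TMM factors. The ± after a mean CPM is the SD over animals and the ± after a log2 difference is its standard error. A gene was called when its adjusted p in edgeR's quasi-likelihood test, corrected over all genes tested, was under 0.05. CPM is not divided by transcript length, so levels were compared between conditions and not between genes.

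Between 1901454 and 6836850 counts per library fell on genes (median 4931502.5). Epithelial markers were present in every library, and OVGP1, the oviduct-specific glycoprotein, had at least 201 counts in each. Summed over 8 genes, the ciliated cell markers ran from 4101 to 7123 CPM in the ampulla (median 5225) and from 2976 to 4678 CPM in the isthmus (median 3876). Summed markers of leukocytes stayed at or under 172 CPM, those of fibroblasts at or under 360.0 CPM and those of smooth muscle at or under 94.0 CPM. Summed endothelial markers reached 365 CPM, with a median of 165 CPM in the ampulla and 26.3 CPM in the isthmus. The contralateral ampulla library of heifer E stood apart, with a secretory marker sum of 37640 CPM against at most 18883 CPM in any other library. At the low end, 3 isthmus libraries had secretory sums of 204 CPM (non-lactating cow C, contralateral), 267 CPM (heifer C, contralateral) and 342 CPM (heifer A, ipsilateral), against a median of 10647 CPM over the isthmus libraries. OVGP1 weighs most in this sum, with a median of 9476 CPM, against 63.6 CPM for KRT7, 118 CPM for MSLN and 117 CPM for PAX8. It stood at 36890 CPM in that library of heifer E and at 37.4, 95.3 and 152 CPM in the 3 isthmus libraries, in the order given. These libraries thus stood apart in OVGP1, and whether they differed in their share of secretory cells was not tested. Each count of called genes was also taken without these 4 libraries, which were picked after the data were seen. The share of all genes called in these fits, and in those that leave out 1 animal, is not reported here. In the ipsilateral ampulla, the library numbered as heifer B correlated best with libraries of non-lactating cow B (r = 0.86, against 0.26 with its own number). The one numbered as non-lactating cow B correlated best with libraries of heifer B (r = 0.82, against 0.27), as if they had been exchanged. These doubted libraries were kept in the group of their column name, and tests that hold them were also run without them. In bulk tissue, fewer cells of a type and less RNA per cell cannot be told apart.

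Over the 12 conditions the genes were compared by their means. The highest mean of 16 of the 26 genes was in the ipsilateral isthmus of heifers, and the lowest mean of 10 genes was in the contralateral ampulla of lactating cows. Genes at their highest in the ipsilateral isthmus of heifers came from every stage, from HMGCS1 and PMVK through SQLE and CYP51A1 to SREBF2, INSIG1 and SCP2. The exceptions included MVK, DHCR7, SREBF1 and SCAP, whose highest mean was in the contralateral ampulla of heifers. That condition holds the library of heifer E, which had the highest value of all 56 libraries for 6 of the 26 genes, namely MVK, EBP, DHCR7, SREBF1, SCAP and NPC2. The ipsilateral isthmus library of the same heifer had the highest value of all 56 libraries for 8 genes. In that library 25 of the 26 genes lay above their mean log2 CPM over the ipsilateral isthmus libraries.

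**Figure D1:**
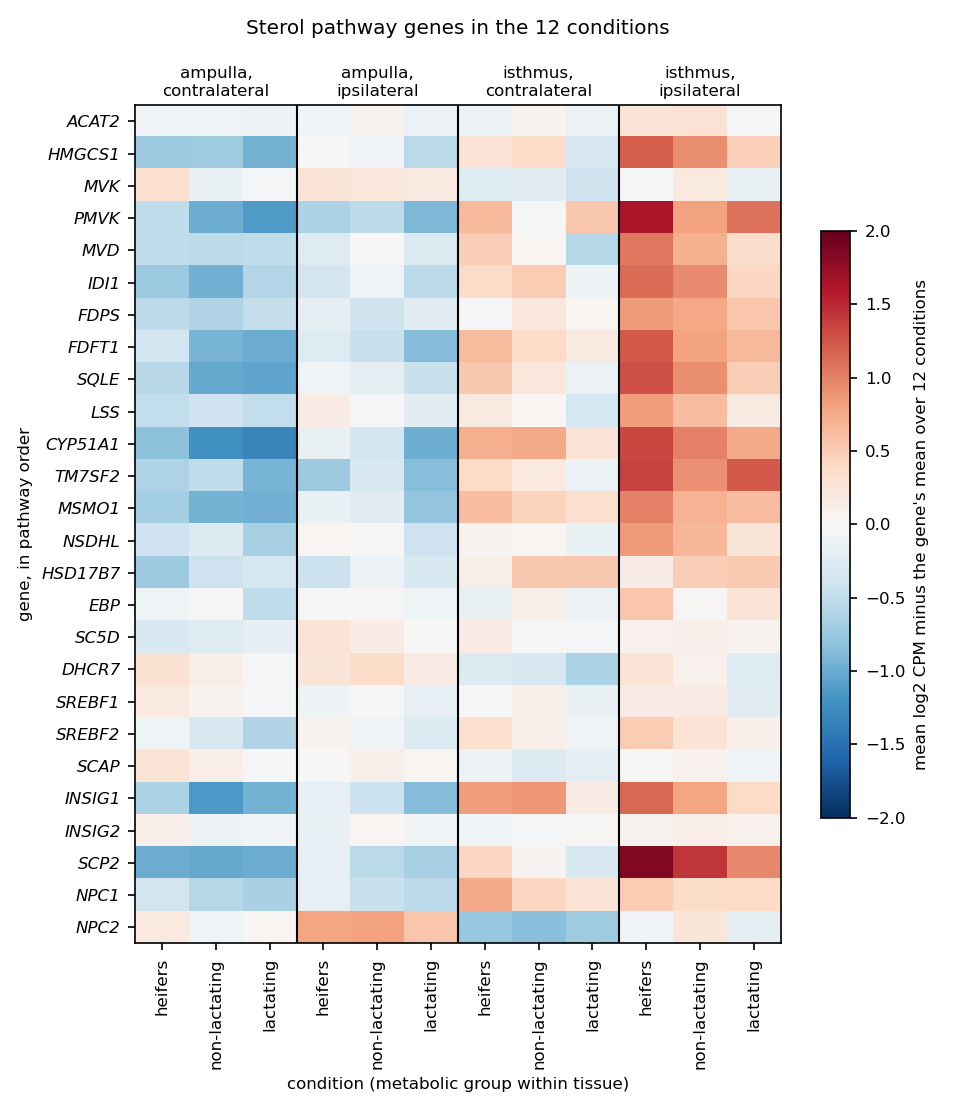
Mean log2 CPM of the 26 genes (vertical axis, in pathway order) in the 12 conditions (horizontal axis), as the difference from each gene's mean over the conditions, on a colour scale from -2 to 2. The column of the heifers' ipsilateral isthmus holds the highest value of 16 genes, and NPC2 runs the other way between regions.

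The largest contrast in the pathway lay between the regions. On the ipsilateral side, 17 of the 26 genes were called higher and 1, NPC2, lower in isthmus relative to ampulla, with the animal groups pooled (n = 14 libraries per region). Over all genes tested, 24.5% were called higher and 25.8% lower. The median log2 difference was 0.77 over the 26 genes and -0.02 over all genes. On the contralateral side, 16 genes were called higher and 3 lower (DHCR7, SCAP and NPC2), with a median of 0.55, against 21.5% of all genes called higher and 22% called lower. Without the 4 libraries apart in secretory markers the counts were 17 higher and 1 lower ipsilaterally and 14 higher and 3 lower contralaterally. The 2 sides come from the same animals and are given side by side.

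Within animals the region difference ran the same way throughout for 9 genes. HMGCS1, IDI1, FDFT1, SQLE, CYP51A1, MSMO1, INSIG1, SCP2 and NPC1 were higher in the isthmus in 10 of 10 animals on the ipsilateral side, leaving out 4 animals whose ampulla library there was doubted or carried a number of another group, and in 14 of 14 animals on the contralateral side. NPC2 was higher in the isthmus in 0 of 10 and 0 of 14 animals. Taking all libraries of each region, 3 genes did not overlap on the ipsilateral side (PMVK, FDFT1 and CYP51A1), against 3.03% of all genes with the isthmus wholly higher, and 1 on the contralateral side (MSMO1), against 2.55%.

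The cell make-up of the scrapings also differed between the regions. All 8 ciliated cell markers were called lower in the isthmus on both sides, with a median log2 difference of -0.47 ipsilaterally and -0.65 contralaterally. Of 5 general epithelial markers, 5 were called higher in the isthmus on the ipsilateral side and 2 on the contralateral side. Summed secretory markers ran from 2824 to 37640 CPM (median 9060) in the ampulla and from 204 to 18883 CPM (median 10647) in the isthmus. KDR, an endothelial receptor, was lower in the isthmus by a log2 difference of -3.40 ± 0.30 (adjusted p = 1.8e-10) and -2.63 ± 0.27 (adjusted p = 2.7e-09). Summed smooth muscle markers had a median of 21.0 CPM in the ampulla (8.15 to 36.3 CPM) and of 45.0 CPM in the isthmus (11.5 to 94.0 CPM). Of the 4 such markers tested, MYH11, a smooth muscle myosin, was called higher in the isthmus by 5.13 ± 0.32 (adjusted p = 1.1e-13) and 4.89 ± 0.39 (adjusted p = 1.7e-11), and 2 were called lower on each side. The part of these marker differences in the pathway's region difference was not tested.

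**Figure D2:**
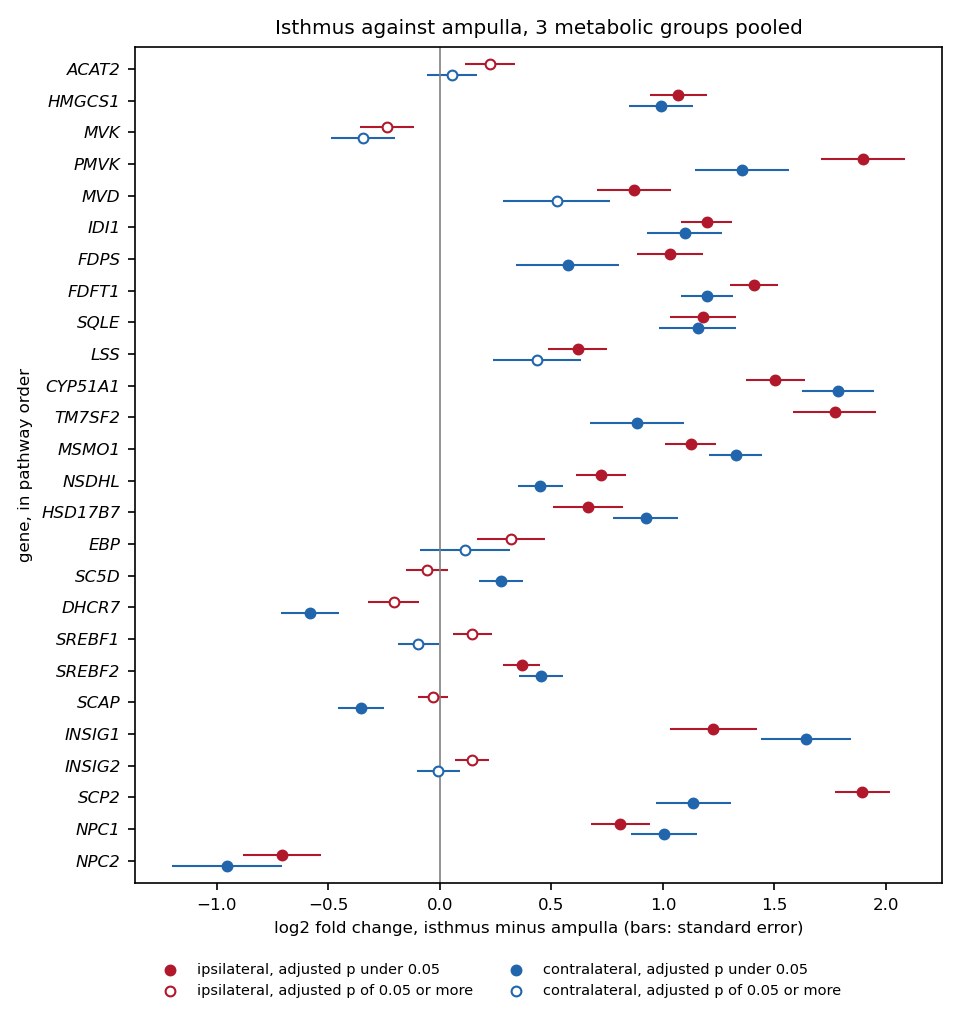
Log2 difference between isthmus and ampulla for each of the 26 genes (vertical axis, pathway order) on the ipsilateral and the contralateral side, with bars for the standard error and filled points for genes called at an adjusted p under 0.05. On the ipsilateral side 17 points lie to the right and are called, and NPC2 is the called gene on the left.

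The side of the corpus luteum was the second contrast. In the isthmus, 16 of the 26 genes were called higher on the ipsilateral side and 0 lower with the groups pooled, against 14.9% of all genes called higher, and the median log2 difference was 0.44 (all genes -0.01). The span of the called differences ran from 0.20 for SCAP to 1.32 for SCP2. In the ampulla 6 genes were called higher and 0 lower, against 2.57% of all genes called higher: HMGCS1, SQLE, CYP51A1, MSMO1, SC5D and SCP2. Without the doubted libraries 5 were called, SC5D being lost, against 1.83% of all genes. Without the 4 libraries apart in secretory markers 17 were called in the isthmus and 8 in the ampulla. The shares of all genes called in these fits are not reported here, so these counts cannot be set against them.

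The isthmus difference between sides was then taken group by group. In heifers 8 genes were called higher on the ipsilateral side (HMGCS1, IDI1, FDPS, FDFT1, CYP51A1, NSDHL, DHCR7 and SCP2), against 5.71% of all genes. With the animal number as a replicate block 12 were called (7.52% of all genes), PMVK at 0.98 ± 0.19 (adjusted p = 0.0085), TM7SF2 at 0.92 ± 0.23 (adjusted p = 0.023), MSMO1 at 0.39 ± 0.12 (adjusted p = 0.048) and NPC2 being added. In non-lactating cows 2 were called (SCP2 and NPC2), against 2.94% of all genes, and 5 with the block (3.83%), which added HMGCS1 at 0.55 ± 0.14 (adjusted p = 0.038), SQLE at 0.71 ± 0.18 (adjusted p = 0.042) and NSDHL at 0.63 ± 0.14 (adjusted p = 0.024). In lactating cows 1 was called (TM7SF2), against 0.144% of all genes, and 3 with the block (1.46%), which added HMGCS1 at 0.83 ± 0.15 (adjusted p = 0.030) and SCP2.

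Leaving out single animals moved these counts. The heifers' count was 2 without heifer A, 2 without heifer B, 1 without heifer E and 11 without heifer C. FDPS kept its call in each of these fits and the other 7 genes lost theirs in at least 1. That of the non-lactating cows was 1 without cow B, C or D, and that of the lactating cows was 0 whichever cow was left out. Without the libraries apart in secretory markers 10 were called in heifers, SQLE and TM7SF2 being added, and 1 in non-lactating cows, NPC2 being lost.

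Libraries of the 2 sides of the isthmus did not overlap for 6 genes in heifers, where the ipsilateral side was wholly higher for 5.01% of all genes, for 3 in non-lactating cows (3.51%) and for 7 in lactating cows (4.24%). HMGCS1 was among those of heifers and of lactating cows, and SCP2 among those of both cow groups. The difference in this contrast between heifers and lactating cows was tested itself in the isthmus, and 0 of the 26 genes were called or reached an unadjusted p under 0.05, where 0% of all genes were called and 2.5% reached an unadjusted p under 0.05. Without heifer A, C or E, 1 reached it.

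In the ampulla no group alone gave a call for the pathway. In heifers 0 of 26 genes were called, where 0% of all genes were, and 7 were higher on the ipsilateral side at an unadjusted p under 0.05 in edgeR's test (4.4% of all genes). That count was 3 without heifer C, 4 without heifer B and 11 without heifer E. In non-lactating cows 0 were called, where 0.0947% of all genes were, and 10 were higher at an unadjusted p under 0.05 (5.69% of all genes). With the replicate block 2 genes of the non-lactating cows were called (0.721% of all genes), MSMO1 at 0.86 ± 0.16 (adjusted p = 0.016) and NPC2 at 0.997 ± 0.17 (adjusted p = 0.0083). In both cow groups, ampulla libraries without a same-numbered partner in their group add nothing to the block fits. With the block and without the doubted libraries both genes were called, MSMO1 at 0.985 ± 0.17 (adjusted p = 0.023) and NPC2 at 0.87 ± 0.18 (adjusted p = 0.045). In lactating cows 0 were called, where 0% of all genes were, and 2 were higher at an unadjusted p under 0.05 (2.4% of all genes). That count was 5 with the replicate block (5.81%), and 1 without lactating cow A, without lactating cow B or without the library numbered as non-lactating cow C.

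Epithelial markers moved with the side in the isthmus. The keratins KRT7 at 0.61 ± 0.095 (adjusted p = 2.6e-05) and KRT8 at 0.52 ± 0.071 (adjusted p = 4.6e-06) were higher on the ipsilateral side, and KDR was lower at -1.29 ± 0.33 (adjusted p = 0.0046). KRT8 is on the list of general epithelial markers and KRT7 on that of secretory cells. Summed secretory markers ran from 204 to 18883 CPM (median 9971) in the contralateral and from 342 to 15187 CPM (median 11079) in the ipsilateral isthmus. Calls of the other secretory markers are not reported here. The summed epithelial markers ran from 1081 to 1483 CPM (median 1269) in the contralateral isthmus and from 1207 to 1853 CPM (median 1470.1) in the ipsilateral isthmus. Among the ciliated cell markers 1 of 8 was called, lower on the ipsilateral side. Summed smooth muscle markers had a median of 40.4 CPM (11.5 to 83.6 CPM) in the contralateral and 54.8 CPM (32.5 to 94.0 CPM) in the ipsilateral isthmus, and 0 of the 4 tested were called. In the ampulla 0 of the epithelial, ciliated and smooth muscle markers were called. Their part in the difference between sides was not tested.

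**Figure D3:**
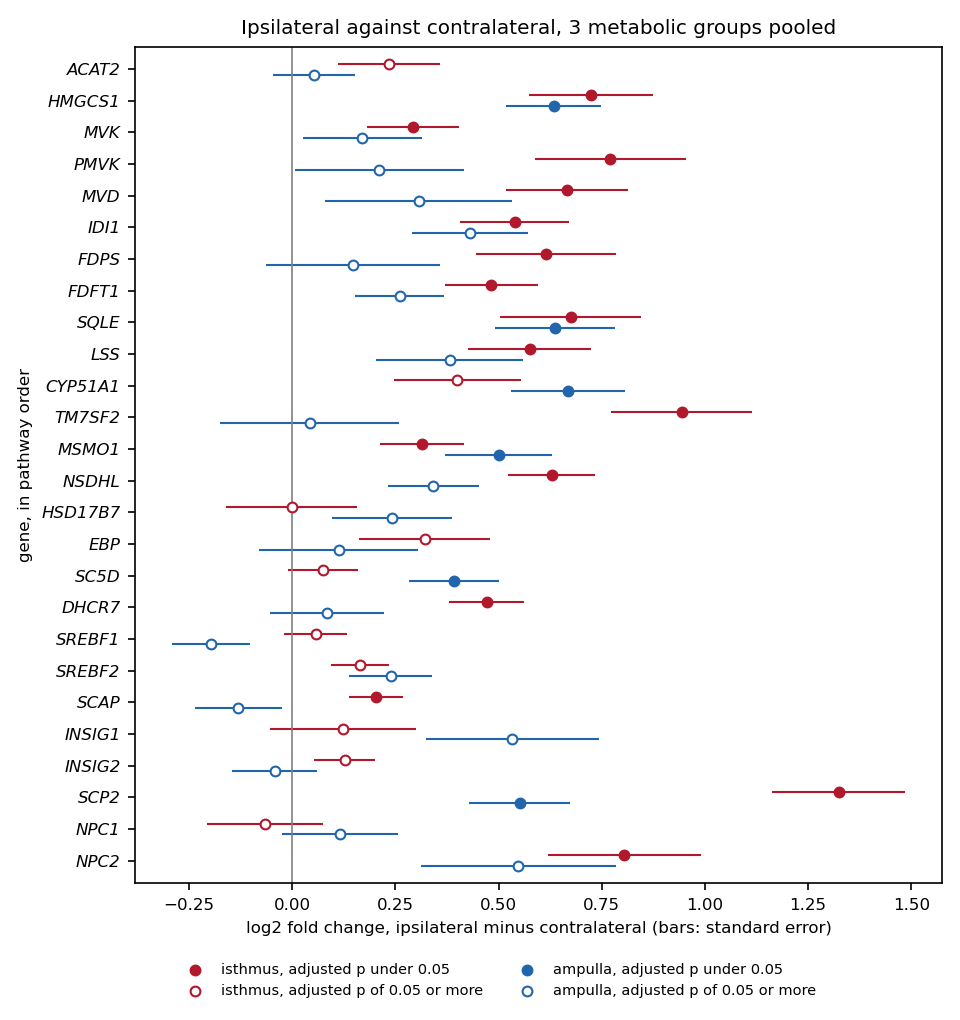
Log2 difference between the ipsilateral and the contralateral oviduct for each of the 26 genes in the ampulla and the isthmus, groups pooled, with bars for the standard error and filled points for called genes. In the isthmus 16 genes are called, with SCP2 farthest to the right at 1.32, and in the ampulla 6 are called.

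A test of the difference between those contrasts, the interaction of side and region, called 2 of the 26 genes, TM7SF2 and SCP2, against 3.87% of all genes called in that direction. Among the markers, 1 of 8 for ciliated cells and 1 of 5 for epithelium were called in the same direction in that test, and their part was not tested. In both genes the ipsilateral excess was larger in the isthmus than in the ampulla, by 0.90 ± 0.28 (adjusted p = 0.042) for TM7SF2 and 0.78 ± 0.21 (adjusted p = 0.016) for SCP2 on the log2 scale. SCP2 was called with each animal left out in turn (highest adjusted p = 0.042). TM7SF2 lost its call in 9 of 14 such fits and without the doubted libraries (adjusted p = 0.069).

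Between the metabolic groups, 0 of the 26 genes were called in any of the 12 comparisons of 2 groups within a tissue. Over all genes the percentage called was 0% in 11 of them and 0.0073% for non-lactating cows against heifers in the isthmus of the ipsilateral side. Every member with an unadjusted p under 0.05 in edgeR's test had the lower mean in the group named first in these comparisons: lactating cows against heifers, non-lactating cows against heifers, and lactating against non-lactating cows. In the ipsilateral isthmus these were 13 genes in lactating cows against heifers (4.92% of all genes lower at that threshold), 5 in non-lactating cows against heifers (5.44%) and 3 in lactating against non-lactating cows (2.91%). The contralateral isthmus gave 9 (5.34%), 0 (4.7%) and 6 (2.07%) in the same order. In the ipsilateral ampulla there were 8 (2.95%), 1 (1.34%) and 5 (1.93%), and in the contralateral ampulla 3 (2.23%), 1 (2.02%) and 0 (2.5%).

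Leaving out 1 animal moved several of these counts. Lactating cows against heifers gave 12 to 14 genes in the ipsilateral isthmus, 7 to 12 in the contralateral isthmus and 6 to 11 in the ipsilateral ampulla. Their 3 genes in the contralateral ampulla became 1 without heifer A, heifer D or lactating cow C. For non-lactating cows against heifers, the 5 genes of the ipsilateral isthmus became 1 without non-lactating cow D, 2 without non-lactating cow E and 3 without heifer C or E. The other 3 counts of that comparison ran from 0 to 3. For lactating against non-lactating cows, the 3 genes of the ipsilateral isthmus became 0 without non-lactating cow B or C, 1 without non-lactating cow D, 5 without lactating cow B and 10 without non-lactating cow E. The 6 genes of the contralateral isthmus became 1 without non-lactating cow C, 2 without lactating cow D or non-lactating cow D and 3 without lactating cow B. The 5 genes of the ipsilateral ampulla became 1 without lactating cow C or non-lactating cow D and 3 without lactating cow A. Their 0 genes in the contralateral ampulla became 1 without lactating cow D or non-lactating cow E. Without the libraries apart in secretory markers the 6 genes of the contralateral isthmus became 1.

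The ipsilateral isthmus of lactating cows against heifers had the lowest median of the 12 comparisons, with 24 of the 26 log2 differences below 0 and a median of -0.37 (all genes 0.01). Libraries of the 2 groups did not overlap for HMGCS1, IDI1, CYP51A1, DHCR7 and INSIG1, where the lactating cows lay wholly lower for 1.97% of all genes and edgeR called 0%. DESeq2's Wald test called 6 genes lower there, HMGCS1, IDI1, SQLE, CYP51A1, INSIG1 and SCP2, with adjusted p between 0.019 and 0.049, against 0.574% of all genes. In the ipsilateral ampulla libraries of lactating cows and heifers did not overlap for CYP51A1 and MSMO1, against 0.992% of all genes. Whether this group difference was larger in the isthmus than in the ampulla of the ipsilateral side was tested itself: 0 genes were called (0% of all genes), and 1, IDI1 at -0.55 ± 0.26 (unadjusted p = 0.049, adjusted p = 1), reached an unadjusted p under 0.05 (3.58% of all genes). With the animal number as a replicate block 4 genes reached it (5.63% of all genes), and 3 with the doubted libraries left out as well. Without the block the count was 0 without heifer A, B, C or E and 2 without heifer D or lactating cow B.

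**Figure D4:**
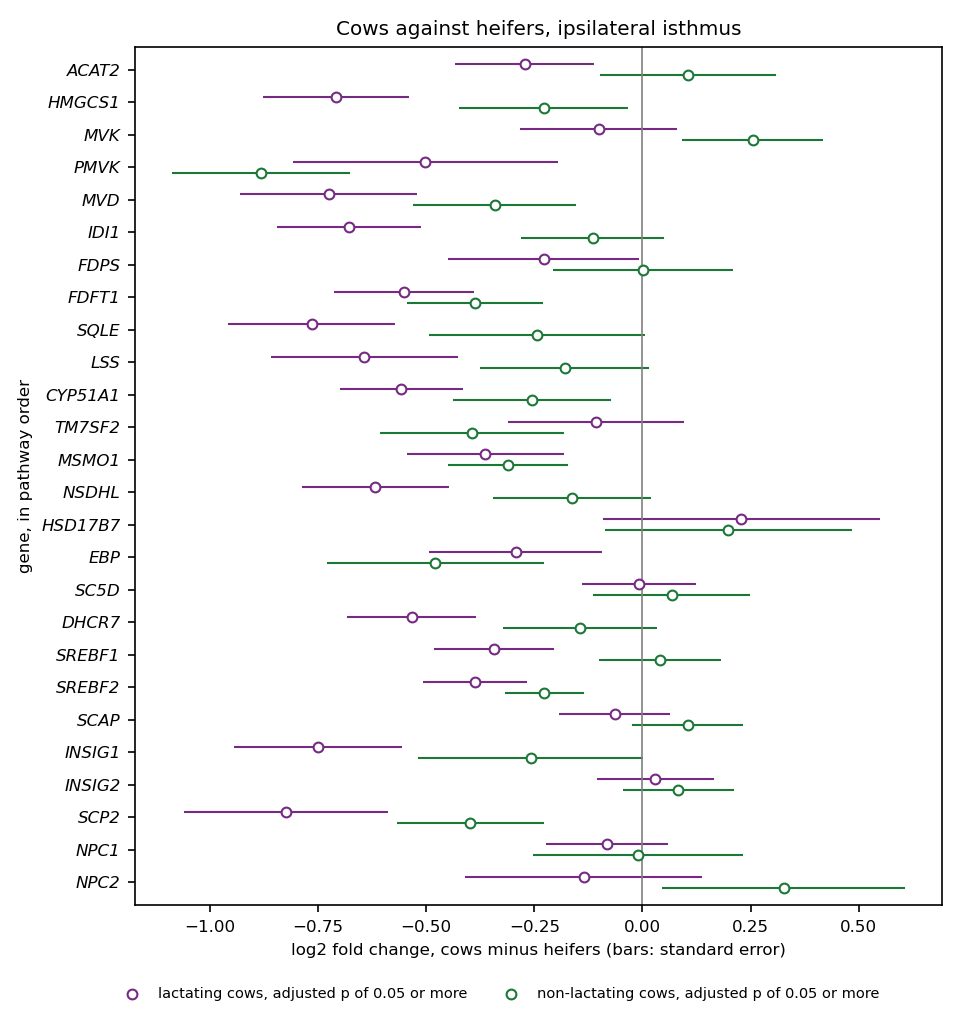
Log2 difference from heifers of lactating and of non-lactating cows in the ipsilateral isthmus (horizontal axis) for each of the 26 genes (vertical axis, pathway order), with bars for the standard error and open points for genes that were not called. No point was called, and 24 of the 26 differences of lactating cows lie below 0.

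The first steps join acetyl-CoA units. ACAT2, the cytosolic thiolase that makes acetoacetyl-CoA, held a narrow band of 23.5 to 62.5 CPM over the 56 libraries, and no comparison gave it an unadjusted p under 0.05. HMGCS1, which adds the next acetyl-CoA to form HMG-CoA, spanned 56.4 to 360.0 CPM. Its CPM values in the ipsilateral isthmus were 248, 249, 275, 319 and 360.0 in heifers, 139, 212, 272, 284 and 317 in non-lactating cows and 140.1, 144, 202 and 220.0 in lactating cows. In the contralateral isthmus they were 95.6, 116, 173, 189.7 and 217 in heifers, 94.1, 118, 149, 223 and 294 in non-lactating cows and 91.5, 98.035, 101 and 102 in lactating cows. All 5 heifers were above all 4 lactating cows on the ipsilateral side, and heifers' values on that side were above all their contralateral ones.

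The regions gave HMGCS1 a log2 difference of 1.07 ± 0.13 (adjusted p = 4.7e-08) on the ipsilateral side and 0.99 ± 0.14 (adjusted p = 1.3e-06) on the contralateral side, the isthmus being higher. Ampulla libraries of the ipsilateral side ran from 69.8 to 159.7 CPM (median 108) and isthmus libraries from 139 to 360.0 CPM (median 249). The ipsilateral excess was 0.72 ± 0.15 (adjusted p = 0.00061) in the isthmus, in 14 of 14 animals, and 0.63 ± 0.12 (adjusted p = 0.0019) in the ampulla, in 9 of 10 animals. Lactating cows differed from heifers by -0.71 ± 0.17 (unadjusted p = 0.0014, adjusted p = 0.25) in the ipsilateral isthmus and by -0.69 ± 0.21 (unadjusted p = 0.0079, adjusted p = 0.37) in the contralateral one, neither of them called.

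**Figure D5:**
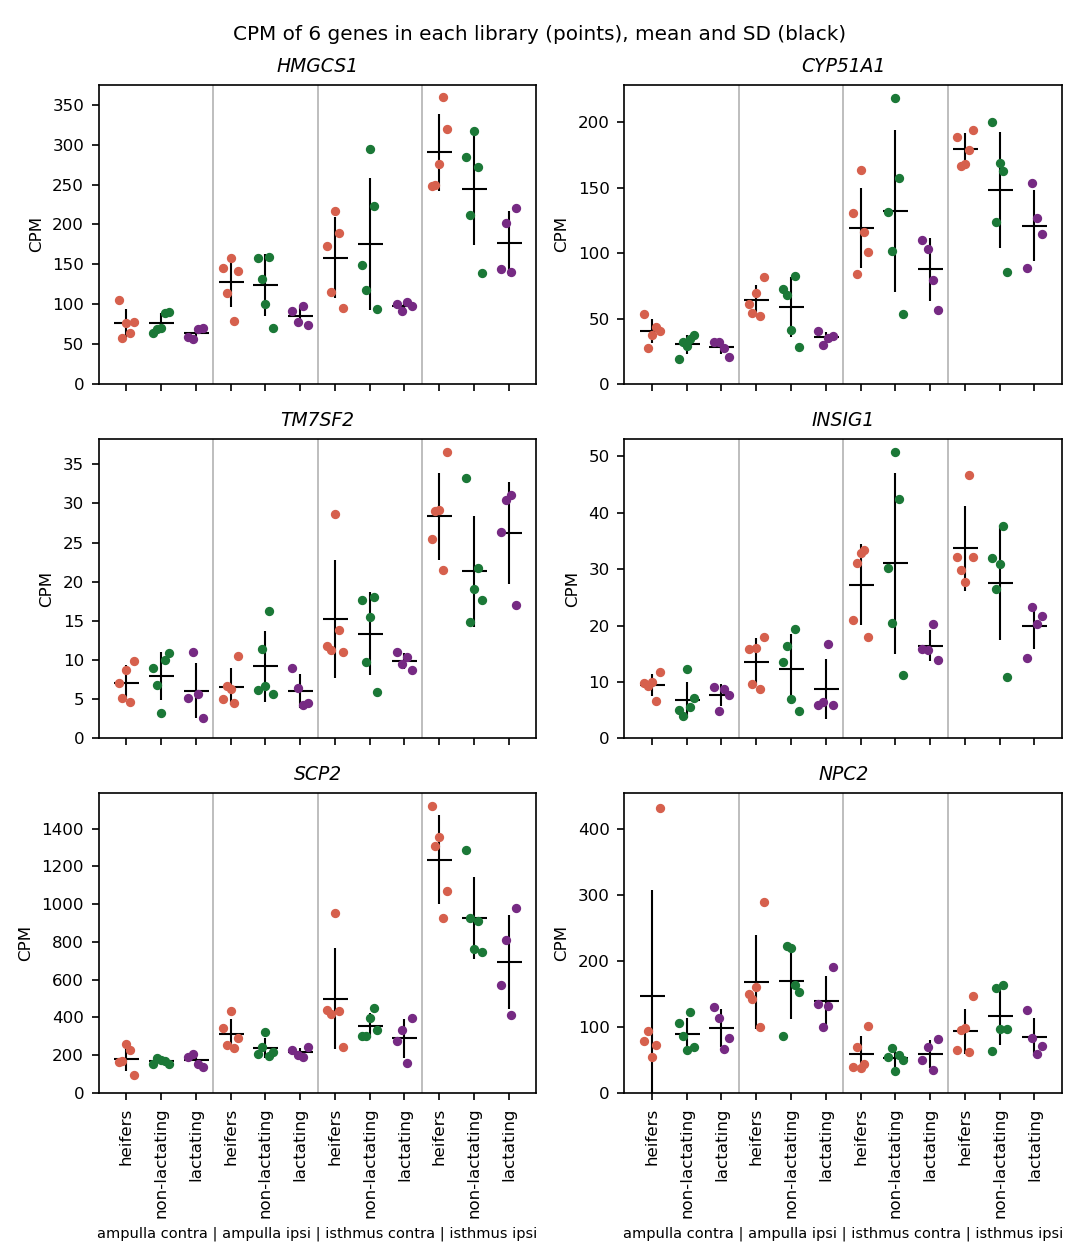
CPM of HMGCS1, CYP51A1, TM7SF2, INSIG1, SCP2 and NPC2 in each of the 56 libraries (points), with the mean and SD of each of the 12 conditions; the vertical axes are linear and start at 0, so the lower arm of the SD of NPC2 in the heifers' contralateral ampulla is hidden. Heifers' ipsilateral isthmus libraries of SCP2 reach 1519 CPM, and the highest NPC2 point, at 432 CPM, is the contralateral ampulla library of heifer E.

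Mevalonate is then phosphorylated by MVK and PMVK and decarboxylated by MVD. For MVK the region difference was not called on the ipsilateral side and was -0.35 ± 0.14 (adjusted p = 0.051) on the contralateral side, in the opposite direction to HMGCS1 and not called, though called without heifer D, lactating cow D or non-lactating cow A or D. Without heifer E, whose contralateral ampulla library was the highest for MVK, it was -0.24 ± 0.13 (unadjusted p = 0.078, adjusted p = 0.14). In the isthmus the ipsilateral excess of MVK was 0.29 ± 0.11 (adjusted p = 0.049), a call that was lost in 8 of 14 fits with 1 animal left out, with no filter on low counts and without the libraries apart in secretory markers. PMVK had one of the widest region differences of the set. Its ipsilateral isthmus libraries ran from 10.5 to 43.7 CPM (median 20.9) and its ipsilateral ampulla libraries from 3.33 to 9.82 CPM (median 6.56), without overlap, a log2 difference of 1.90 ± 0.19 (adjusted p = 1.7e-09). On the contralateral side the difference was 1.35 ± 0.21 (adjusted p = 4.4e-06).

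In the isthmus PMVK was read by side and group. Its ipsilateral values were 17.960, 29.8, 35.3, 35.992 and 43.7 CPM in heifers, 15.1, 15.4, 17.4, 19.8 and 20.01 CPM in non-lactating cows and 10.5, 21.8, 26.8 and 32.3 CPM in lactating cows. The heifers' range lay highest, with overlap. The ipsilateral excess was 0.77 ± 0.18 (adjusted p = 0.0020) with groups pooled. Non-lactating cows differed from heifers by -0.88 ± 0.21 (unadjusted p = 0.00090, adjusted p = 0.14), which edgeR did not call and DESeq2 called (adjusted p = 0.0095, 1 gene of the set against 1.01% of all genes). EdgeR called it without heifer D (adjusted p = 0.040). Low counts limit this gene: its smallest library count was 8 and its median 45.

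MVD had means from 6.58 ± 1.78 CPM in the contralateral isthmus of lactating cows to 20.9 ± 4.68 CPM in the ipsilateral isthmus of heifers. The region difference was called on the ipsilateral side, at 0.87 ± 0.16 (adjusted p = 5.8e-05), and not on the contralateral side, at 0.52 ± 0.24 (adjusted p = 0.079), except without heifer E or lactating cow D. The ipsilateral excess in the isthmus was 0.67 ± 0.15 (adjusted p = 0.0011). In lactating cows the MVD values of the 2 sides of the isthmus did not overlap, with 10.4, 12.2, 12.5 and 14.9 CPM on the ipsilateral and 4.32, 6.13, 7.45 and 8.43 CPM on the contralateral side. Against heifers, lactating cows differed by -0.73 ± 0.20 (unadjusted p = 0.0043, adjusted p = 0.31) in the ipsilateral and -1.15 ± 0.34 (unadjusted p = 0.0055, adjusted p = 0.37) in the contralateral isthmus, not called.

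IDI1 interconverts the isoprenoid units and FDPS condenses them to farnesyl diphosphate, the branch point to sterols. For IDI1 the ipsilateral isthmus gave 54.4, 56.1, 56.6, 67.1 and 70.8 CPM in heifers, 37.6, 44.8, 62.1, 62.6 and 70.5 CPM in non-lactating cows and 25.9, 36.3, 41.9 and 47.2 CPM in lactating cows. The lactating cows lay wholly under the heifers, and the non-lactating cows overlapped with both. The log2 difference of lactating cows from heifers was -0.68 ± 0.17 (unadjusted p = 0.0016, adjusted p = 0.26), and from non-lactating cows -0.56 ± 0.22 (unadjusted p = 0.024, adjusted p = 0.80). Neither was called. By region IDI1 differed by 1.20 ± 0.11 (adjusted p = 6.0e-10) on the ipsilateral and 1.10 ± 0.17 (adjusted p = 3.4e-06) on the contralateral side, and by side in the isthmus by 0.54 ± 0.13 (adjusted p = 0.0026).

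FDPS was higher in the isthmus on both sides. Its difference was 1.03 ± 0.15 (adjusted p = 1.0e-06) on the ipsilateral side and 0.57 ± 0.23 (adjusted p = 0.043) on the contralateral side, where the call was lost in 9 of 14 fits with 1 animal left out and without the libraries apart in secretory markers. In the isthmus of heifers the 2 sides did not overlap, with 27.5, 29.8, 31.1, 31.4 and 38.9 CPM on the ipsilateral and 13.5, 14.5, 18.4, 19.997 and 20.01 CPM on the contralateral side. That difference, 0.85 ± 0.15 (adjusted p = 0.0076), kept its call whichever heifer was left out. With groups pooled it was 0.61 ± 0.17 (adjusted p = 0.0070).

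FDFT1, squalene synthase, is the first enzyme committed to sterols. Its ipsilateral isthmus libraries ran from 166 to 381 CPM (median 259.7) and ipsilateral ampulla libraries from 54.3 to 152 CPM (median 88.4), a log2 difference of 1.41 ± 0.11 (adjusted p = 1.0e-11) without overlap. On the contralateral side it was 1.20 ± 0.12 (adjusted p = 1.1e-09). The ipsilateral excess in the isthmus was 0.48 ± 0.11 (adjusted p = 0.0019). In the ampulla of non-lactating cows the sides did not overlap either, with 80.6, 87.8, 98.7, 106 and 113 CPM on the ipsilateral and 53.1, 63.9, 73.5, 78.2 and 79.6 CPM on the contralateral side, a difference of 0.48 ± 0.14 (unadjusted p = 0.0042, adjusted p = 0.24) that was not called (1.17% of all genes did not overlap in that direction). The 113 CPM is from the doubted library numbered as non-lactating cow B. The library numbered as heifer B, which correlated best with that cow, held 77.0 CPM, within the contralateral range.

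FDFT1 reached an unadjusted p under 0.05 in lactating cows against heifers in all 4 tissues. The differences were -0.62 ± 0.21 (unadjusted p = 0.011, adjusted p = 0.51) in the ipsilateral ampulla and -0.59 ± 0.20 (unadjusted p = 0.012, adjusted p = 0.94) in the contralateral ampulla. In the isthmus they were -0.55 ± 0.16 (unadjusted p = 0.0055, adjusted p = 0.32) ipsilaterally and -0.48 ± 0.17 (unadjusted p = 0.018, adjusted p = 0.40) contralaterally. For non-lactating cows against heifers they were -0.39 ± 0.16 (unadjusted p = 0.028, adjusted p = 0.35) in the ipsilateral isthmus and -0.52 ± 0.17 (unadjusted p = 0.0076, adjusted p = 0.999) in the contralateral ampulla, where the libraries did not overlap (0.476% of all genes). None of them was called.

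SQLE, squalene epoxidase and a rate-controlling enzyme of the later pathway, rose in the isthmus by 1.18 ± 0.15 (adjusted p = 1.3e-07) on the ipsilateral and 1.16 ± 0.17 (adjusted p = 2.3e-06) on the contralateral side. Values in the ipsilateral isthmus were 102, 115, 134, 153 and 154 CPM in heifers, 46.7, 94.8, 116, 129 and 161 CPM in non-lactating cows and 57.6, 61.5, 81.4 and 107 CPM in lactating cows. The groups overlapped, with the heifers' median on top. The ipsilateral excess was 0.67 ± 0.17 (adjusted p = 0.0036) in the isthmus and 0.64 ± 0.15 (adjusted p = 0.010) in the ampulla, and both kept their calls whichever animal was left out. The difference of lactating cows from heifers there was -0.76 ± 0.19 (unadjusted p = 0.0020, adjusted p = 0.28), not called by edgeR.

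LSS closes the ring of squalene epoxide to lanosterol. It was higher in the isthmus by 0.62 ± 0.13 (adjusted p = 0.00026) on the ipsilateral side and by 0.43 ± 0.20 (adjusted p = 0.076), not called except without heifer E or non-lactating cow B, on the contralateral side. The ipsilateral excess in the isthmus was 0.58 ± 0.15 (adjusted p = 0.0042). Means ran from 10.2 ± 3.14 CPM in the contralateral ampulla of lactating cows to 25.9 ± 5.03 CPM in the ipsilateral isthmus of heifers. The difference of lactating cows from heifers in that isthmus was -0.64 ± 0.22 (unadjusted p = 0.012, adjusted p = 0.36), not called.

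CYP51A1 removes the first methyl group of lanosterol, and it had the largest region difference of the set on the contralateral side. Its ampulla libraries there ran from 19.2 to 53.6 CPM (median 32.2) and its isthmus libraries from 53.3 to 219 CPM (median 107), a log2 difference of 1.79 ± 0.16 (adjusted p = 2.7e-10) or 3.45-fold. On the ipsilateral side the difference was 1.504 ± 0.13 (adjusted p = 1.9e-10) and the libraries did not overlap. Heifers gave 167, 168, 179, 189 and 194 CPM in the ipsilateral isthmus, the non-lactating cows 85.4, 124, 163, 169 and 200.2 CPM and the lactating cows 88.4, 115, 127 and 154 CPM. In the ipsilateral ampulla the values were 52.2, 54.7, 61.5, 69.983 and 81.7 CPM for heifers, 28.3, 41.5, 68.3, 72.7 and 83.04 CPM for non-lactating cows and 29.9, 35.6, 36.7 and 40.7 CPM for lactating cows. In both tissues all lactating cows lay under all heifers. In the ampulla, the heifers' 54.7 CPM and the non-lactating cows' 41.5 CPM are from the doubted libraries.

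The group difference of CYP51A1 had the smallest p of the set in the ipsilateral ampulla. Lactating cows differed from heifers there by -0.83 ± 0.16 (unadjusted p = 0.00019, adjusted p = 0.51), which DESeq2 called (adjusted p = 0.012, 1 gene of the set against 0.0386% of all genes) and edgeR did not. In the ipsilateral isthmus the difference was -0.56 ± 0.14 (unadjusted p = 0.0022, adjusted p = 0.28). Lactating cows differed from non-lactating cows in the ipsilateral ampulla by -0.72 ± 0.27 (unadjusted p = 0.019, adjusted p = 0.998). By side, the ampulla difference was 0.67 ± 0.14 (adjusted p = 0.0052), called, though not without the doubted libraries in the fit with the replicate block (0.62 ± 0.17, adjusted p = 0.054). In the isthmus it was 0.40 ± 0.15 (adjusted p = 0.051), not called, and 0.45 ± 0.10 (adjusted p = 0.0027) with the replicate block. It was called without lactating cow A, non-lactating cow C or non-lactating cow E, and at 0.54 ± 0.15 (adjusted p = 0.0084) without the libraries apart in secretory markers.

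TM7SF2, a sterol reductase that follows CYP51A1 and shares its step with LBR, carried the larger of the called interactions of side and region. In the ipsilateral isthmus it gave 21.5, 25.5, 29.1, 29.1 and 36.6 CPM in heifers, 14.9, 17.6, 19.037, 21.8 and 33.3 CPM in non-lactating cows and 17.1, 26.3, 30.4 and 31.1 CPM in lactating cows. In the contralateral isthmus it gave 10.996, 11.3, 11.8, 13.8 and 28.6 CPM in heifers, 5.97, 9.75, 15.4, 17.7 and 18.1 CPM in non-lactating cows and 8.72, 9.52, 10.4 and 11.035 CPM in lactating cows. In lactating cows the sides did not overlap, a difference of 1.41 ± 0.22 (adjusted p = 0.041). Leaving out any 1 lactating cow lost that call. Pooled, the ipsilateral excess in the isthmus was 0.94 ± 0.17 (adjusted p = 0.00014), in 14 of 14 animals.

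The regions differed by 1.77 ± 0.19 (adjusted p = 4.7e-09) for TM7SF2 on the ipsilateral side and by 0.88 ± 0.21 (adjusted p = 0.0011) on the contralateral side. In the ampulla no difference between sides was called for it, and the ipsilateral side was higher in 6 of 10 animals. Counts were low, with a smallest library count of 13 and a median of 47.

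MSMO1, NSDHL and HSD17B7 remove the remaining methyl groups in turn. MSMO1 contralateral isthmus libraries ran from 108 to 217 CPM (median 164) and ampulla libraries from 39.7 to 107 CPM (median 68.8), without overlap, a log2 difference of 1.33 ± 0.12 (adjusted p = 2.4e-10). On the ipsilateral side it was 1.12 ± 0.11 (adjusted p = 2.4e-09). The ipsilateral excess was 0.31 ± 0.10 (adjusted p = 0.021) in the isthmus and 0.50 ± 0.13 (adjusted p = 0.023) in the ampulla. The ampulla call was lost without heifer C, non-lactating cow A or non-lactating cow D (highest adjusted p = 0.054). In the ipsilateral ampulla MSMO1 gave 80.9, 92.6, 109, 124 and 142 CPM in heifers, 73.030, 82.3, 97.3, 122 and 149 CPM in non-lactating cows and 60.3, 67.6, 71.9 and 72.1 CPM in lactating cows. The heifers' 80.9 CPM and the non-lactating cows' 82.3 CPM are from the doubted libraries. The lactating cows lay under both other groups without overlap (0.992% of all genes against heifers and 0.562% against non-lactating cows), with log2 differences of -0.68 ± 0.16 (unadjusted p = 0.0010, adjusted p = 0.51) against heifers and -0.62 ± 0.19 (unadjusted p = 0.0064, adjusted p = 0.998) against non-lactating cows, not called.

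NSDHL differed by region by 0.72 ± 0.11 (adjusted p = 3.9e-06) on the ipsilateral and 0.45 ± 0.10 (adjusted p = 0.00055) on the contralateral side. In the isthmus its ipsilateral excess was 0.63 ± 0.11 (adjusted p = 6.0e-05), present in 14 of 14 animals. Heifers gave 42.8, 55.6, 64.3, 71.2 and 75.4 CPM on the ipsilateral and 30.8, 31.5, 33.023, 36.1 and 44.3 CPM on the contralateral side of the isthmus. The 2 sides overlapped, since heifers' lowest ipsilateral value lay under their highest contralateral one. Their difference of 0.81 ± 0.16 (adjusted p = 0.010) was called, and lost its call without heifer E. Lactating cows differed from heifers in the ipsilateral isthmus by -0.62 ± 0.17 (unadjusted p = 0.0036, adjusted p = 0.30), not called.

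HSD17B7, the keto reductase of this stage, was higher in the isthmus by 0.67 ± 0.16 (adjusted p = 0.00073) on the ipsilateral and 0.92 ± 0.15 (adjusted p = 5.1e-06) on the contralateral side. It showed no called difference between sides or groups, and no unadjusted p under 0.05 in those comparisons. Heifer C stood apart: all 4 of its libraries lay between 18.9 and 21.7 CPM, and the other 52 libraries lay between 30.3 and 94.1 CPM. The gap appeared in both regions and on both sides.

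The last steps gave fewer calls. EBP, the sterol isomerase, was measured at low counts (smallest 10, median 35), and its region difference was 0.32 ± 0.15 (adjusted p = 0.083) on the ipsilateral side, not called except without non-lactating cow A, D or E. In heifers the isthmus values of the 2 sides did not overlap, with 8.12, 9.44, 10.02, 12.1 and 13.03 CPM on the ipsilateral and 4.51, 5.19, 6.88, 7.41 and 7.65 CPM on the contralateral side, a difference of 0.70 ± 0.21 (unadjusted p = 0.0059, adjusted p = 0.055) that was not called. SC5D, a desaturase, was higher in the isthmus on the contralateral side by 0.28 ± 0.099 (adjusted p = 0.024). In the ampulla it was higher on the ipsilateral side by 0.39 ± 0.11 (adjusted p = 0.034). Each of these SC5D calls was fragile, the first lost in 4 and the second in 5 of 14 fits with 1 animal left out, and the first also without the libraries apart in secretory markers.

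DHCR7, which makes cholesterol from its last precursor, ran against the earlier steps by region. On the contralateral side isthmus libraries ran from 47.8 to 80.7 CPM (median 59.8) and ampulla libraries from 67.3 to 209 CPM (median 84.1), a log2 difference of -0.58 ± 0.13 (adjusted p = 0.00046). Without heifer E it was -0.46 ± 0.099 (adjusted p = 0.00041). On the ipsilateral side no region difference was called, except without the doubted libraries in the fit with the replicate block (-0.29 ± 0.11, adjusted p = 0.038). By side it went with the other genes in the isthmus, higher on the ipsilateral side by 0.47 ± 0.091 (adjusted p = 0.00029) and in 14 of 14 animals. The ipsilateral isthmus gave 84.2, 87.6, 88.1, 116 and 126 CPM in heifers, 58.2, 81.3, 89.4, 103 and 116 CPM in non-lactating cows and 58.005, 66.9, 70.7 and 79.7 CPM in lactating cows. The heifers lay above the lactating cows without overlap, here and in the contralateral isthmus (1.97% and 1.84% of all genes), with differences of -0.53 ± 0.15 (unadjusted p = 0.0042, adjusted p = 0.31) and -0.37 ± 0.11 (unadjusted p = 0.0083, adjusted p = 0.37) that were not called.

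SREBF2 encodes the main regulator of these enzymes. Its means ran from 123 ± 28.2 CPM in the contralateral ampulla of lactating cows to 263 ± 21.1 CPM in the ipsilateral isthmus of heifers. The gene was higher in the isthmus by 0.37 ± 0.082 (adjusted p = 0.00046) on the ipsilateral and 0.45 ± 0.097 (adjusted p = 0.00033) on the contralateral side. By side it differed by 0.16 ± 0.070 (adjusted p = 0.080) in the isthmus and 0.24 ± 0.10 (adjusted p = 0.18) in the ampulla, neither called, although the ampulla difference was 0.31 ± 0.093 (adjusted p = 0.043) without heifer E. The isthmus difference was called without lactating cow A or B or non-lactating cow C, and at 0.21 ± 0.074 (adjusted p = 0.033) without the libraries apart in secretory markers. Its values in the ipsilateral isthmus were 239, 246, 259, 284 and 284 CPM in heifers, 207, 211, 225, 231 and 235 CPM in non-lactating cows and 159.7, 194, 204 and 241 CPM in lactating cows. The heifers and the non-lactating cows did not overlap there (1.28% of all genes), with a difference of -0.23 ± 0.091 (unadjusted p = 0.028, adjusted p = 0.35) that was not called.

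SREBF1, known mainly for the control of fatty acid synthesis, showed no called difference by region, side or group. Its libraries ran from 77.9 to 206.8 CPM. SREBF1 differed at an unadjusted p under 0.05 in lactating cows against heifers in the ipsilateral isthmus (-0.34 ± 0.14, unadjusted p = 0.030, adjusted p = 0.44) and between sides in the ampulla (-0.20 ± 0.095, unadjusted p = 0.046, adjusted p = 0.25), where the ipsilateral side was the lower one. Without heifer E the ampulla difference was -0.13 ± 0.088 (unadjusted p = 0.14, adjusted p = 0.40). The values for lactating against non-lactating cows were -0.38 ± 0.17 (unadjusted p = 0.050, adjusted p = 0.80) in the ipsilateral and -0.28 ± 0.12 (unadjusted p = 0.041, adjusted p = 1) in the contralateral isthmus.

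SCAP was lower in the isthmus on the contralateral side, with a log2 difference of -0.35 ± 0.10 (adjusted p = 0.0066) and of -0.27 ± 0.085 (adjusted p = 0.011) without heifer E, and was not called on the ipsilateral side. In the isthmus SCAP was higher on the ipsilateral side by 0.20 ± 0.066 (adjusted p = 0.021), a call lost without non-lactating cow D.

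The INSIG genes encode the sterol-sensing anchors of SCAP. INSIG1, itself a known target of SREBP, was higher in the isthmus by 1.23 ± 0.19 (adjusted p = 4.9e-06) on the ipsilateral and 1.64 ± 0.20 (adjusted p = 8.2e-08) on the contralateral side, where its ampulla libraries ran from 4.0048 to 12.3 CPM (median 8.25) and its isthmus libraries from 11.2 to 50.8 CPM (median 20.8). The ipsilateral isthmus gave 27.8, 29.8, 32.1, 32.1 and 46.8 CPM in heifers, 10.9, 26.5, 31.007, 32.037 and 37.7 CPM in non-lactating cows and 14.2, 20.3, 21.8 and 23.3 CPM in lactating cows. All lactating cows lay under all heifers, at -0.75 ± 0.19 (unadjusted p = 0.0024, adjusted p = 0.28), not called by edgeR. No difference between the sides was called for INSIG1. INSIG2 held between 24.1 and 48.1 CPM in all 56 libraries, with no unadjusted p under 0.05 in any comparison. Without the doubted libraries its region difference on the ipsilateral side was called at 0.21 ± 0.076 (adjusted p = 0.026).

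With groups pooled, SCP2 had the largest difference between sides of the isthmus among the 26 genes, while in lactating cows alone that of TM7SF2 was larger. Its values were 929, 1068, 1310.1, 1358 and 1519 CPM in heifers, 745, 765, 913, 928 and 1287 CPM in non-lactating cows and 412, 573, 808 and 979 CPM in lactating cows, all in the ipsilateral isthmus. In the contralateral isthmus they were 245, 416, 435, 439 and 954 CPM in heifers, 298, 301, 335, 394 and 450.1 CPM in non-lactating cows and 155, 273, 331 and 396 CPM in lactating cows. Sides did not overlap in either cow group and overlapped in heifers. The ipsilateral excess was 1.32 ± 0.16 (adjusted p = 1.0e-06), or 2.504-fold, with groups pooled and present in 14 of 14 animals. In the ampulla it was 0.55 ± 0.12 (adjusted p = 0.0080), in 10 of 10 animals.

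By group, the ipsilateral excess of SCP2 in the isthmus was 1.30 ± 0.29 (adjusted p = 0.017) in heifers and 1.39 ± 0.17 (adjusted p = 0.0016) in non-lactating cows. The heifers' call was lost without heifer A, B or E (highest adjusted p = 0.085), and that of the non-lactating cows in no such fit. In lactating cows it was 1.27 ± 0.32 (adjusted p = 0.15), not called, and 1.28 ± 0.10 (adjusted p = 0.00096) with the replicate block. Between regions it differed by 1.89 ± 0.12 (adjusted p = 2.7e-13) on the ipsilateral side, where ampulla libraries ran from 190.3 to 433 CPM (median 239.9) and isthmus libraries from 412 to 1519 CPM (median 928), and by 1.14 ± 0.17 (adjusted p = 1.7e-06) on the contralateral side. Against heifers, lactating cows differed by -0.82 ± 0.24 (unadjusted p = 0.0048, adjusted p = 0.32) in the ipsilateral isthmus and by -0.52 ± 0.17 (unadjusted p = 0.011, adjusted p = 0.51) in the ipsilateral ampulla, not called by edgeR.

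The lysosomal pair parted by region. NPC1, the membrane transporter, was higher in the isthmus by 0.81 ± 0.13 (adjusted p = 8.5e-06) on the ipsilateral and 1.005 ± 0.15 (adjusted p = 2.1e-06) on the contralateral side, while NPC2, its soluble partner, was lower, with log2 differences of -0.71 ± 0.18 (adjusted p = 0.0013) and -0.96 ± 0.25 (adjusted p = 0.0021). Without heifer E the contralateral difference of NPC2 was -0.73 ± 0.15 (adjusted p = 0.00016). Ipsilateral isthmus libraries of NPC2 ran from 59.4 to 163 CPM (median 95.6) and ipsilateral ampulla libraries from 85.6 to 289 CPM (median 151), with overlap. No difference between sides was called for NPC1, for which the ipsilateral isthmus was the higher in 3 of 14 animals. In heifers alone that difference was -0.26 ± 0.097 (unadjusted p = 0.019, adjusted p = 0.10).

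NPC2 was higher on the ipsilateral side of the isthmus by 0.80 ± 0.19 (adjusted p = 0.0017), in 13 of 14 animals. Non-lactating cows gave 62.8, 96.1, 96.6, 159 and 163 CPM on the ipsilateral and 32.6, 49.9, 54.3, 57.8 and 68.3 CPM on the contralateral side of the isthmus, a difference of 1.15 ± 0.26 (adjusted p = 0.027) with overlap. That call was lost without non-lactating cow B, C, D or E (highest adjusted p = 0.099). It was also lost without the library of cow C that had the low secretory sum (adjusted p = 0.060). In the ampulla the pooled difference was 0.55 ± 0.24 (adjusted p = 0.19), not called. It was 0.69 ± 0.14 (adjusted p = 0.0077) with the replicate block and 0.78 ± 0.14 (adjusted p = 0.0019) without heifer E, whose contralateral library held 432 CPM against 54.3 to 93.8 CPM in the other heifers. In heifers the block gave a called isthmus difference of 0.70 ± 0.14 (adjusted p = 0.0085).

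Other genes of the pathway were taken from 4 lists of named genes. Of 10 further sterol synthesis genes, 7 were called higher on the ipsilateral side of the isthmus and 0 lower, against 14.9% and 13.5% of all genes. In the ampulla 3 of them were called higher on that side, against 2.57% of all genes. Between regions 6 were called higher in the isthmus and 1 lower on the ipsilateral side (24.5% and 25.8% of all genes), and 4 higher and 2 lower on the contralateral side (21.5% and 22%). POR, the reductase that feeds electrons to CYP51A1 and SQLE, differed by 1.63 ± 0.15 (adjusted p = 4.1e-10) between the regions on the ipsilateral side.

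Of 14 genes of sterol uptake, storage and transfer, 9 were called higher in the isthmus and 1 lower on the ipsilateral side, and 5 higher and 3 lower on the contralateral side, beside 24.5% and 25.8%, and 21.5% and 22%, of all genes. GRAMD1A, a sterol transfer protein, was higher on the ipsilateral side of the isthmus by 0.54 ± 0.11 (adjusted p = 0.00052), among 4 called higher and 1 lower there, where 14.9% and 13.5% of all genes were. Of 7 genes of SREBP processing, 1 was called higher on that side in the isthmus, ERLIN1 at 0.68 ± 0.11 (adjusted p = 4.4e-05), and 2 lower, among them the protease gene MBTPS2 at -0.45 ± 0.11 (adjusted p = 0.0025). By region 2 were called higher and 3 lower on the ipsilateral side, and 1 higher and 1 lower on the contralateral side. For this list, too, 14.9% and 13.5% of all genes were called higher and lower by side, and 24.5% and 25.8% by region ipsilaterally.

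Of 9 fatty acid synthesis genes known as SREBP1 targets, 3 were called higher and 2 lower on the ipsilateral side of the isthmus (14.9% and 13.5% of all genes). ELOVL6, a fatty acid elongase, was at 0.93 ± 0.12 (adjusted p = 1.7e-06) and FASN, fatty acid synthase, at 0.52 ± 0.085 (adjusted p = 4.8e-05). Between regions 6 were called higher in the isthmus and 1 lower ipsilaterally (24.5% and 25.8% of all genes), and 4 higher and 0 lower contralaterally (21.5% and 22%), with FADS2, a desaturase, at 1.10 ± 0.21 (adjusted p = 6.5e-05) and 1.41 ± 0.21 (adjusted p = 2.5e-06). The median log2 difference between sides of the isthmus was 0.29 for the further synthesis genes, 0.09 for uptake, 0.083 for SREBP processing and 0.15 for fatty acid synthesis, and that between regions on the ipsilateral side 0.31, 0.33, -0.11 and 0.31. The same medians over all genes were -0.01 and -0.02. Between the metabolic groups 0 genes of these 4 lists were called in the ipsilateral isthmus of lactating cows and heifers, where FASN differed by -0.65 ± 0.13 (adjusted p = 0.24).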

How the data were processed

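Read counts per gene were deposited as 1 table of 31903 genes and 56 libraries. According to the methods and the submitters' notes, the authors made stranded libraries from total RNA, demultiplexed with bcl2fastq 1.8.4, aligned reads to the bovine genome with TopHat2 2.0.13 and counted them strand-specifically with HTSeq 0.6.1. Between 8.66% and 13.7% of counted alignments fell on genes (median 10.9%), and only these counts entered library sizes. Lines that name no gene, the remaining share, were left out.

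Column names gave group, region, side and an animal number. Each library was used in the group of its column name. From the 200 genes with the most animal-specific levels, 2 libraries of the ipsilateral ampulla resembled an animal of another group, as given in the report, and 2 others carried the number of an animal of another group. Apart from these, every library correlated with its own animal (r of at least 0.585). The genes were picked with these same numbers, which raises that r, so it does not test the pairing. Over all genes with a mean log2 CPM above 3, the deviations of same-numbered libraries had a median correlation of 0.21 between regions on either side. It was 0.27 between sides in the ampulla and 0.39 between sides in the isthmus. Single pairs went down to 0.08 contralaterally and 0.02 ipsilaterally between regions. Between sides they went down to -0.006 in the ampulla and -0.04 in the isthmus. The numbers were taken as pairs, and the replicate block was fitted as an alternative. Libraries that carried the number of an animal of another group had no partner in the block. This left 12 pairs of sides in the ampulla and 14 in the isthmus.

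Differences were tested with edgeR 4.0.16 (R 4.3.3, TMM scaling, filterByExpr with a minimum count of 10, quasi-likelihood F test). Benjamini-Hochberg adjustment ran over all genes tested, and the threshold was 0.05. Each metabolic comparison and each side comparison within a group used the libraries of that comparison. Pooled comparisons between regions and between sides carried the metabolic group as a covariate, and the interaction of side and region used all 56 libraries. Alternatives were DESeq2 1.42.0, RLE size factors, no filter, the replicate block, leaving out each animal, leaving out the doubted libraries and leaving out the 4 libraries with summed secretory markers under 1000 or over 20000 CPM. Shares of all genes under DESeq2 are of those with an adjusted p. Code for the tests was tried on simulated data.

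All listed genes are described. Fold change, standard error and p are printed for those with an unadjusted p under 0.05 in a comparison, besides alternatives that change a call. Other pathway genes are named from lists, at most 2 with the smallest p in a comparison, and values of some of them are not reported here. Genes and lists were chosen with earlier results of these data known. Each library came from 1 animal. In comparisons of metabolic groups p-values measure the spread between animals. In comparisons of sides or regions and in interactions each animal gave more than 1 library. Without the replicate block these were treated as independent, so those p-values measure the spread between libraries and leave out the pairing. Total counts of 1901454 to 6836850 limit the precision of genes with few counts.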

Additional observations from a re-analysis of the deposited data

Results flagged for a closer look

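Each of the 26 genes was examined in each of the 12 conditions for a library far from the rest, 312 groups of 4 or 5 libraries in all. In 21 of them the gap of the highest or lowest library to its nearest neighbour, as a share of the whole range, passed Dixon's critical value. Chance alone flags about 1 in 20 groups.

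HSD17B7 was the gene with most such groups. Heifer C was low in the ipsilateral isthmus at 19.0 CPM against 72.9 to 82.1 CPM (gap 0.919 of the range), in the contralateral isthmus at 21.7 CPM against 66.5 to 88.4 CPM (0.7958) and in the ipsilateral ampulla at 19.3 CPM against 40.0 to 53.5 CPM (0.713). Non-lactating cow C was high for HSD17B7 in the contralateral isthmus, at 92.3 CPM against 73.4 to 76.9 CPM (0.7921).

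The contralateral ampulla library of heifer E was high for NPC2 at 432 CPM against 54.3 to 93.8 CPM (0.7375) and for SCAP at 184.5 CPM against 84.1 to 105 CPM (0.7179). It was low for SC5D at 23.7 CPM against 43.9 to 55.9 CPM (0.7165). In the same tissue heifer A was high for IDI1, at 27.2 CPM against 13.3 to 15.8 CPM (0.7588).

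In the ipsilateral isthmus heifer D was high for INSIG1 at 46.8 CPM against 27.8 to 32.1 CPM (0.7222) and for NPC1 at 145 CPM against 117 to 123 CPM (0.7797), and heifer A was low for INSIG2 at 29.6 CPM against 39.5 to 41.6 CPM (0.8515). Non-lactating cow E was low there for NSDHL at 34.2 CPM against 57.3 to 62.9 CPM (0.8462) and for INSIG1 at 10.9 CPM against 26.5 to 37.7 CPM (0.712). Non-lactating cow D was low for SC5D at 34.5 CPM against 60.0 to 71.5 CPM (0.7597), and cow B was high for INSIG2 at 48.1 CPM against 37.1 to 39.0 CPM (0.81).

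Among the other tissues, heifer C was high for TM7SF2 in the contralateral isthmus, at 28.6 CPM against 11.0 to 13.8 CPM (0.7638). Non-lactating cow D was high for LSS in the ipsilateral ampulla, at 23.3 CPM against 11.6 to 12.2 CPM (0.9333). Lactating cow D was low for LSS in the contralateral isthmus at 8.25 CPM against 11.9 to 12.04 CPM (0.9653), high for DHCR7 in the contralateral ampulla at 122 CPM against 69.1 to 71.0 CPM (0.9519) and high for INSIG1 in the ipsilateral ampulla at 16.7 CPM against 5.96 to 6.39 CPM (0.935). Lactating cow A was low for SREBF1 in the contralateral ampulla, at 96.7 CPM against 126 to 129 CPM (0.8993).

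The difference between sides was itself different between the regions for 2 genes. The interaction was 0.90184493 for TM7SF2 (standard error 0.28, adjusted p = 0.042) and 0.78436016 for SCP2 (standard error 0.21, adjusted p = 0.016) on the log2 scale, the ipsilateral excess being larger in the isthmus.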

How the results depend on the processing

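No gene of the pathway reversed its direction under any alternative among the values reported. Of the single-gene values with an unadjusted p under 0.05, 165 kept direction and call under DESeq2 and 23 gained a call. Under RLE size factors 187 kept them and 1 gained a call, with no filter 182 kept them, 4 gained and 2 lost a call, and with the replicate block 123 kept them and 11 gained. The block changed no call besides those given in the report. Leaving out the doubted libraries, chosen after seeing the data, 69 kept them and 2 lost a call. With the block added to that, 52 kept them, 3 gained and 2 lost a call. Leaving out the 4 libraries apart in secretory markers, also chosen after seeing the data, 140 kept them, 6 gained and 4 lost a call.

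The number of genes called moved by over 1.5 times in these cases. DESeq2 called 1 gene in lactating cows against heifers in the ipsilateral ampulla (0.0386% of all genes), 6 in the ipsilateral isthmus (0.574%), and 1 in non-lactating cows against heifers there (1.01%). Between sides it called 2 genes in the ampulla of non-lactating cows (0.671%) and 14, 5 and 3 in the isthmus of heifers (7.61%), non-lactating (4.24%) and lactating cows (1.72%). With no filter 1 gene was called between sides in the ampulla of non-lactating cows, 2 in the isthmus of lactating cows and 1 for the interaction of side and region. With the animal number as a replicate block 2 were called between sides in the ampulla of non-lactating cows, 5 in their isthmus and 3 in the isthmus of lactating cows, besides 12 in the isthmus of heifers. Without the libraries apart in secretory markers 1 was called between sides in the isthmus of non-lactating cows. Without the doubted libraries 1 was called for the interaction, and with the block added 2 in the ampulla of non-lactating cows. Where no share of all genes stands beside a count, it is either given above or not reported here. The cause was not tested.

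Leaving out each animal in turn, the number called ranged from 0 to 1 in non-lactating cows against heifers in the ipsilateral isthmus (1 without heifer D) and from 0 to 1 between sides in the ampulla of non-lactating cows. It ranged from 1 to 11 between sides in the isthmus of heifers, from 1 to 2 in that of non-lactating cows, was 0 in that of lactating cows, and ranged from 1 to 2 for the interaction. The pooled counts ranged from 14 to 17 in the isthmus and 4 to 8 in the ampulla between sides, and between regions from 18 to 20 ipsilaterally and 17 to 20 contralaterally. The smallest library counts of PMVK, EBP and TM7SF2 were 8, 10 and 13.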
